A study of Mus musculus with 9 samples.

Results

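The perilipins are the proteins that coat the lipid droplet, the organelle in which cells store triglyceride. The family has 5 listed members in the mouse, Plin1 to Plin5, and 5 of the 45101 probe sets carried a symbol of one of them: 1 each for Plin2 (1448318_at), Plin3 (1416424_at) and Plin4 (1418595_at), and 2 for Plin5 (1441915_s_at and 1424937_at). No probe set was named Plin1 in the annotation used, so Plin1 was not analysed here, and the family is described by 4 of 18193 genes. The probe sets were found by gene symbol, with no use of their values, but the family was chosen with earlier results of these data known.

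Transcripts were measured on 9 Affymetrix arrays of NIH-CAR cells at passage 12, with 3 arrays in each of 3 groups. NIH-CAR is 1 clone of the mouse fibroblast line NIH-3T3, made to express the coxsackie-adenovirus receptor CARΔ1 so that adenovirus can enter, and all groups share this background, 2 h of exposure to adenovirus and the same calf serum medium. The AdEmpty group, the control, received virus with no insert and then DMSO, the vehicle. The PPARγ2 group received virus for the full-length, HA-tagged receptor, and the PPARγCDE group received virus for HA-PPARγCDE, which lacks the N-terminal A/B-domain; both were then given rosiglitazone, a PPARγ agonist, at 1 µM. Receptor and agonist were changed together, so their contributions cannot be told apart. The time between agonist and harvest is not given in the sources used here.

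Perilipins share an N-terminal region and stretches of amphipathic helix that lie on the droplet surface, where they limit the access of lipases to stored fat. Plin2 is found in most cells and is unstable when not bound to a droplet, and Plin3 is a widely expressed, soluble protein that moves onto new droplets. Plin4 coats small nascent droplets in adipocytes, Plin5 is typical of heart, oxidative muscle and liver, and Plin1 is the adipocyte coat that responds to protein kinase A. PPARs are known regulators of several members of the family.

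The sequences 250 bases upstream of the annotated start are shown for Plin2 and Plin4, because these were the members whose 3 arrays lay above all AdEmpty arrays in both receptor groups. They are from RefSeq on GRCm38.p6, are written 5′ to 3′ on the strand of the gene and end at the base before the start. Capitals mark a match to the nuclear receptor core motif AGGTCA or its reverse complement TGACCT. The Plin2 window is chr4:86670060-86670309 and the Plin4 window is chr17:56109783-56110032, both on the minus strand.
Plin2: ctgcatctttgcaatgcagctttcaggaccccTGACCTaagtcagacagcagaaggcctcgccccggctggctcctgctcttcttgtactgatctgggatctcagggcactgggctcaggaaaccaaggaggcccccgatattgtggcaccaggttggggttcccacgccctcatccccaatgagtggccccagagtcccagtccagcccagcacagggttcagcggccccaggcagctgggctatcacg
Plin4: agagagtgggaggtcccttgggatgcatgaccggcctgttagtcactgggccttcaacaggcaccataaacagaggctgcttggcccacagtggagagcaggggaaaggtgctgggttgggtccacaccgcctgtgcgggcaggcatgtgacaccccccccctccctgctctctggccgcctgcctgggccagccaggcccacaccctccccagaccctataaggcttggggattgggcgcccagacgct
The Plin2 window held 1 core motif, as TGACCT with its first letter 218 bases before the start, and the Plin4 window held 0. Of the other windows, that of Plin1, that of Plin3 and 1 of the 2 listed for Plin5 held 0, and the other of Plin5 held 1, as AGGTCA, 170 bases before its start. The core motif, on either strand, was found in 14.0% of 32851 such windows. The DR1 element, the core motif repeated in the same direction with 1 base between the copies, to which PPAR and RXR are known to bind, was searched on both strands, strictly and in a looser form that allows any base in place of each T. The strict form was in 0.0335% and the looser in 0.338% of all windows, and neither was in a window of Plin1, Plin2, Plin3, Plin4 or Plin5. A match is only a description of the letters, and windows further from the start were not searched. In the RefSeq gene table Plin4 and Plin5 are direct neighbours on chromosome 17, with 0 genes between them, and Plin3 lies on the same chromosome with 9 genes between it and Plin5.

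All levels and differences are the deposited values on the log2 scale, so 1 unit is a doubling. The submitters' processing notes name RMA, which commonly includes quantile normalization, but the arrays did not share 1 distribution. Levels are given as mean ± SD over 3 arrays, and differences with the standard error (SE) and adjusted p-value of limma, called under 0.05 over all 18193 genes. The 3 groups were compared in 3 contrasts, and the contrasts that share a group are not independent of each other. The median of each array lay between 6.68 and 6.90, and 9 values, none of them a perilipin's, were exactly 0. Pparg was at 7.06 ± 0.10 with AdEmpty, 11.25 ± 0.84 under PPARγ2 and 11.34 ± 0.63 under PPARγCDE (SD, n = 3). Of 8 fibroblast marker genes 0 were called in any contrast, and their summed level, as a log2 value, was 16.14 to 16.42 with AdEmpty, 16.11 to 16.41 under PPARγ2 and 16.14 to 16.43 under PPARγCDE. Markers of mature adipocytes summed to 9.07 to 9.43, 9.61 to 9.75 and 9.07 to 9.26, and 1 of the 7 measured was called, Cidec. No gene of the macrophage, muscle or epithelial and endothelial marker lists, each of 7 genes, was called.

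Plin2 was the member that rose the most. With AdEmpty its 3 arrays read 10.23, 9.75 and 10.75, under PPARγ2 12.96, 13.04 and 13.87, and under PPARγCDE 12.73, 12.88 and 13.72. Every receptor array lay above every AdEmpty array, by a wide gap, while the 2 receptor groups overlapped throughout. The level went from 10.25 ± 0.50 with AdEmpty to 13.29 ± 0.50 under PPARγ2 and 13.11 ± 0.54 under PPARγCDE (SD, n = 3).

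The increase of Plin2 was 3.04 (SE 0.35, limma adjusted p = 0.00444) under PPARγ2, a fold of 8.25. Under PPARγCDE it was 2.87 (SE 0.35, limma adjusted p = 0.0125), a fold of 7.29. Among all 18193 genes these were the 8th and the 6th largest increases of their contrasts. Plin2 was the 1 of 4 members called higher in each of these contrasts, where 0.5% of all genes were called higher under PPARγ2 and 0.159% under PPARγCDE. The call under PPARγCDE was lost without AdEmpty replicate 1 (limma adjusted p = 0.0733), without AdEmpty replicate 2 (0.0748) or without PPARγCDE replicate 2 (0.0605), with differences of 2.86, 2.62 and 2.98. The call under PPARγ2 was kept without any 1 of the 9 arrays, and the highest adjusted p was 0.0289.

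**Figure D1:**
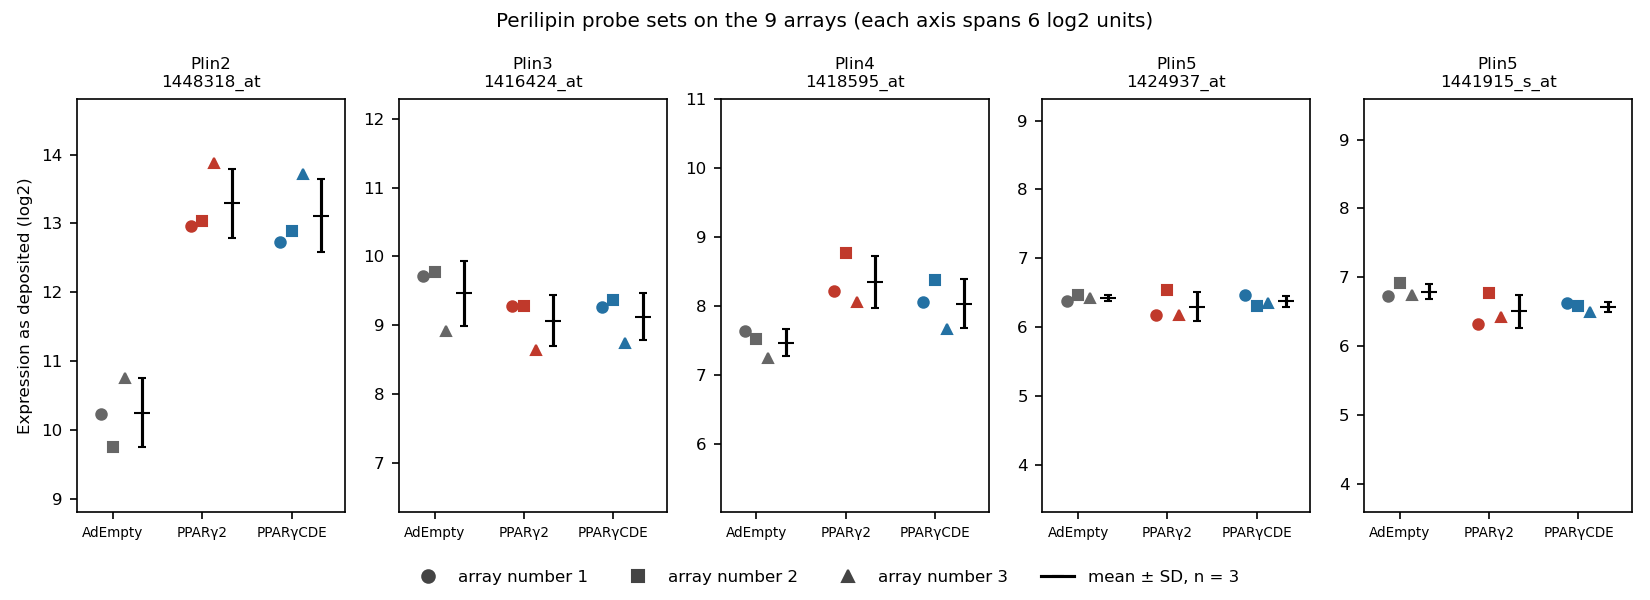
Deposited expression (log2) of the 5 perilipin probe sets on the 9 arrays; points are arrays, shaped by the replicate number, and black marks show mean ± SD for n = 3. Plin2 lies between 9.75 and 10.75 with AdEmpty and between 12.73 and 13.87 in the receptor groups, and the other probe sets move by far less on axes of equal span.

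Between the receptors Plin2 differed by -0.18, PPARγCDE minus PPARγ2, with a 95% interval from -0.96 to 0.60 (limma adjusted p = 1.00). That interval, from the fit without a block, takes in a fall of Plin2 by nearly 1 unit. With the replicate number as a block the interval ran from -0.50 to 0.14 (limma adjusted p = 0.980). Arrays of these 2 groups with equal replicate numbers were taken as pairs because their values correlated, not because the labels say so. Within these pairs the differences were -0.23, -0.16 and -0.15. PPARγCDE was thus lower in each of 3 pairs, by less than the spread between arrays of 1 group. Such an order, lower in all 3 pairs, was seen in 12.4% of all genes. On the log2 scale the increase under PPARγCDE was 94.1% of that under PPARγ2.

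Plin4, the coat protein of nascent adipocyte droplets, was higher in both receptor groups but was not called in the fit without a block. Its arrays read 7.64, 7.52 and 7.25 with AdEmpty, 8.22, 8.77 and 8.06 under PPARγ2 and 8.05, 8.38 and 7.67 under PPARγCDE. All receptor arrays lay above all AdEmpty arrays, though the lowest PPARγCDE array exceeded the highest AdEmpty array by little. The means were 7.47 ± 0.20, 8.35 ± 0.37 and 8.03 ± 0.36 (SD, n = 3).

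The difference of Plin4 was 0.88 (SE 0.23, limma adjusted p = 0.204) under PPARγ2, a fold of 1.84, and 0.57 (SE 0.23, limma adjusted p = 1.00) under PPARγCDE, a fold of 1.48. These ranked 147th and 219th among the increases of all genes. Plin2 and Plin4 were the 2 of 4 members whose arrays lay above AdEmpty without overlap, in both contrasts, against 4.52% of all genes under PPARγ2 and 3.86% under PPARγCDE. PPARγCDE minus PPARγ2 was -0.32, with a 95% interval from -0.83 to 0.19 (limma adjusted p = 1.00). With the replicate number as a block the interval ran from -0.64 to 0.0073 (limma adjusted p = 0.980). The difference was -0.11 without PPARγ2 replicate 2, -0.13 without PPARγCDE replicate 3 and -0.49 without PPARγCDE replicate 2. Within the pairs it was -0.16, -0.39 and -0.39. Plin4 was thus lower under PPARγCDE in 3 of 3 pairs, the order seen in 12.4% of all genes, and the arrays of the 2 groups overlapped. Its increase under PPARγCDE was 64.2% of that under PPARγ2 on the log2 scale. Neither increase was called in the fit without a block. There the 95% interval under PPARγCDE ran from 0.06 to 1.08, so this share is imprecise. With the replicate number as a block, the increase under PPARγ2 was called (95% interval from 0.56 to 1.21, limma adjusted p = 0.0216). The increase under PPARγCDE was not (limma adjusted p = 0.167), and numbers were not taken as pairs for PPARγ2 and AdEmpty. In both receptor groups the array numbered 2 was the highest for Plin4 and also for Pparg, which read 10.70, 12.22 and 10.84 under PPARγ2 and 10.74, 12.01 and 11.26 under PPARγCDE. The part of the receptor's level in that order was not tested.

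Plin3, the soluble member, lay on the other side of zero and was not called. It read 9.71, 9.77 and 8.92 with AdEmpty, 9.28, 9.28 and 8.64 under PPARγ2 and 9.26, 9.37 and 8.74 under PPARγCDE. The array numbered 3 was the lowest of every group, and because of it the groups overlapped. The means were 9.47 ± 0.47, 9.07 ± 0.37 and 9.13 ± 0.34 (SD, n = 3).

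The difference of Plin3 was -0.40 (SE 0.28, limma adjusted p = 1.00) under PPARγ2 and -0.34 (SE 0.28, limma adjusted p = 1.00) under PPARγCDE. With 1 array left out these ran from -0.67 (without AdEmpty replicate 3) to -0.19 (without PPARγ2 replicate 3) and from -0.61 (without AdEmpty replicate 3) to -0.15 (without PPARγCDE replicate 3). The PPARγCDE and AdEmpty arrays of equal number were also taken as pairs, and within the pairs Plin3 was at -0.45, -0.40 and -0.18. It was lower in 3 of 3 pairs, as were 19% of all genes, and with the replicate number as a block the limma adjusted p was 0.168. Under PPARγ2, where numbers were not taken as pairs, the block gave a 95% interval from -0.59 to -0.21 (limma adjusted p = 0.0556). PPARγCDE minus PPARγ2 was 0.06, with a 95% interval from -0.56 to 0.68, and from -0.14 to 0.25 with the block.

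Plin5, the member of oxidative tissues, was measured by 2 probe sets that differed in how far they moved. On 1441915_s_at, the one kept for the gene, the arrays read 6.72, 6.91 and 6.74 with AdEmpty, 6.31, 6.77 and 6.43 under PPARγ2 and 6.63, 6.58 and 6.49 under PPARγCDE. On 1424937_at they read 6.37, 6.47 and 6.43, then 6.17, 6.55 and 6.18, then 6.47, 6.31 and 6.36. On the first probe set the 3 PPARγCDE arrays lay below all AdEmpty arrays, as in 4.03% of all genes, and on the second the groups overlapped.

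Against AdEmpty 1441915_s_at was at -0.29 (SE 0.14, limma adjusted p = 0.883) under PPARγ2 and at -0.22 (SE 0.14, limma adjusted p = 1.00) under PPARγCDE. In a fit over all 34945 probe sets with 1 symbol, 1424937_at was at -0.12 (SE 0.13) and -0.05 (SE 0.13), both with a limma adjusted p of 1.00. The 9 arrays of 1424937_at all lay below the lowest array median, 6.68. Detection calls were not used here, so it was not shown that Plin5 was expressed. Between the receptors the 2 probe sets differed by 0.06 and 0.08.

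**Figure D2:**
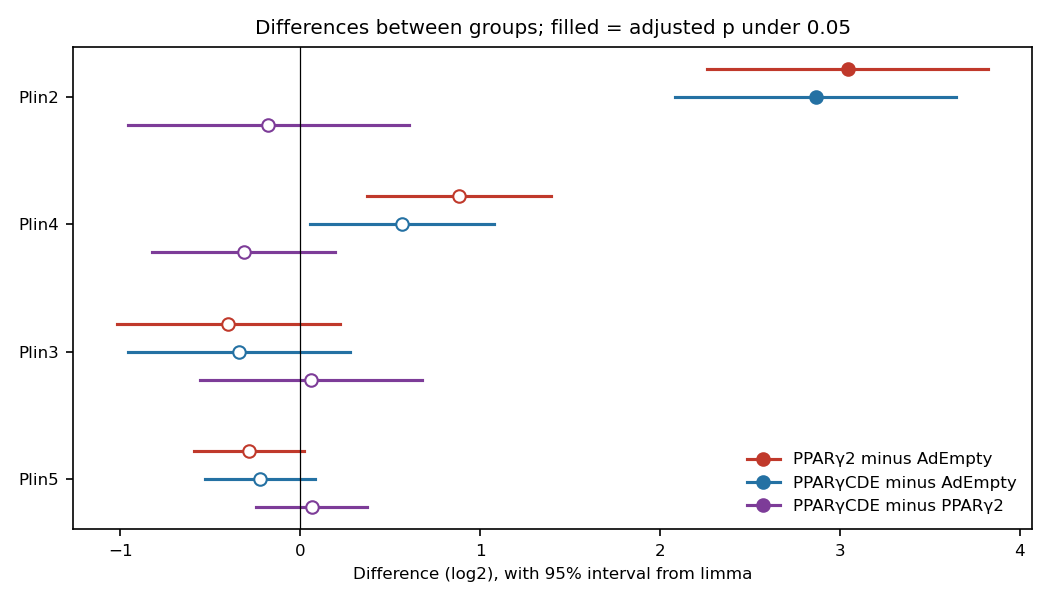
Difference between groups (log2) for the 4 measured perilipin genes in 3 contrasts, with 95% intervals from limma; filled points have an adjusted p under 0.05. Plin2 is called against AdEmpty at 3.04 and 2.87, and all 4 intervals of PPARγCDE minus PPARγ2 include 0.

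Taking the 4 members by contrast, limma called 0 lower and 3 were not called under either receptor, where 0.154% of all genes were called lower under PPARγ2 and 0.011% under PPARγCDE. At an unadjusted p under 0.05, 2 of 4 members were higher and 0 lower in each of these contrasts. Among all genes that share was 3.04% higher and 3.16% lower under PPARγ2, and 2.22% higher and 1.57% lower under PPARγCDE. The median of the 4 differences was 0.30 under PPARγ2 and 0.17 under PPARγCDE, against 0.00 and -0.03 over all genes. Between the receptors 0 of 4 members and 0% of all genes were called, and at an unadjusted p under 0.05 there were 0 members and 277 of 18193 genes.

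Plin2 was highest, and Plin3 and Plin4 lowest, on the array numbered 3 of every group, which was not so for Plin5. The 18S ribosomal RNA control probe sets, 3 in number, averaged 8.67, 7.59 and 8.06 on these arrays (AdEmpty, PPARγ2, PPARγCDE) and 10.51 to 12.44 on the other 6, and their part in the perilipin levels was not tested. Without the 3 arrays, a fit chosen after seeing the data, Plin2 was higher by 3.01 and 2.81 (limma adjusted p = 0.00167 and 0.00315) and Plin4 by 0.92 and 0.64 (0.136 and 0.402). Plin3 was then at -0.46 and -0.42 (limma adjusted p = 0.169 and 0.329), and no call of a member changed.

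**Figure D3:**
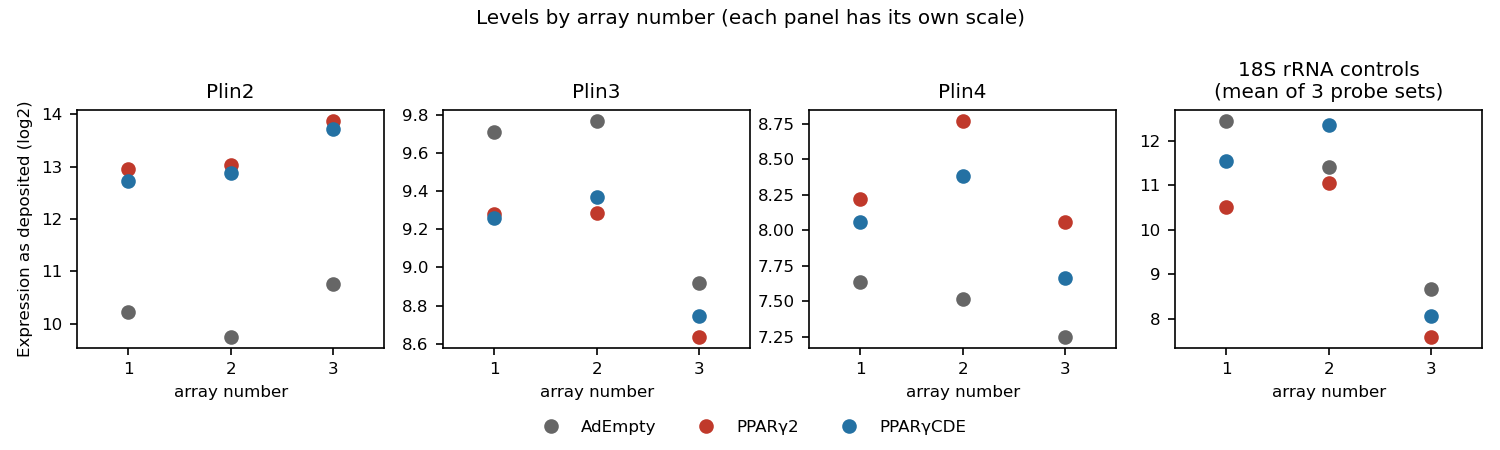
Deposited expression (log2) of Plin2, Plin3, Plin4 and the mean of 3 control probe sets for 18S ribosomal RNA, by replicate number of the array and coloured by group; each panel has its own scale. On the arrays numbered 3 Plin2 is at its highest and Plin3, Plin4 and 18S at their lowest in each group, and on each number both receptor points of Plin2 lie above the AdEmpty point.

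Genes that act with the perilipins on the droplet were described from 5 lists, with 61 of 69 genes measured. Limma called 2 of the 61 higher under PPARγ2, 0 under PPARγCDE and 0 between the receptors, and 0 lower in any of the 3. Over all genes 0.5% were called higher and 0.154% lower under PPARγ2, 0.159% and 0.011% under PPARγCDE, and 0% between the receptors. At an unadjusted p under 0.05 the counts were 7 higher and 2 lower, 5 higher and 0 lower, and 0 higher and 3 lower, in that order of contrasts. Over all genes the shares were the 3.04%, 3.16%, 2.22% and 1.57% given above, and 0.544% higher and 0.978% lower between the receptors. The median difference over the 61 genes was 0.02 under PPARγ2 and 0.06 under PPARγCDE. With the replicate number as a block, which pairs the PPARγCDE and AdEmpty arrays, 1 gene was called higher, Fitm2, and 1 lower, Acsl4 (limma adjusted p = 0.0263 and 0.0471).

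Both called genes were among the 11 measured for droplet formation and fusion. Cidec, which joins droplets into larger ones, rose from 5.15 ± 0.21 to 7.66 ± 0.71 under PPARγ2, by 2.51 (SE 0.32, limma adjusted p = 0.00915). Under PPARγCDE it was at 5.70 ± 0.37, a difference of 0.55 (SE 0.32, limma adjusted p = 1.00). The AdEmpty and PPARγCDE means of Cidec lay below the lowest array median, 6.68. Detection calls were not used, so its expression in those groups was not shown. Its 3 PPARγCDE arrays lay below all PPARγ2 arrays, as in 3.14% of all genes, and the difference of -1.96 was not called (limma adjusted p = 0.871), though it was without PPARγ2 replicate 3 (-2.36, limma adjusted p = 0.036). Fitm2, which helps droplets to bud from the endoplasmic reticulum, rose from 8.03 ± 0.14 to 9.80 ± 0.24, by 1.77 (SE 0.17, limma adjusted p = 0.00179), and was at 8.99 ± 0.26 under PPARγCDE. The PPARγCDE difference from AdEmpty was 0.96 (SE 0.17, limma adjusted p = 0.109). For Cidec and Fitm2 the difference between the receptors, -1.96 and -0.81, was larger in size than for Plin2, -0.18, but that contrast of genes was not tested.

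Of 10 measured genes of lipolysis, the process that perilipins restrain, 0 were called, and 2 under PPARγ2 and 1 under PPARγCDE were higher at an unadjusted p under 0.05. Pnpla2, the lipase that takes the first fatty acid from triglyceride, was at 6.94 ± 0.28 with AdEmpty, 7.77 ± 0.07 under PPARγ2 and 7.47 ± 0.15 under PPARγCDE. Its differences from AdEmpty were 0.83 (SE 0.15, limma adjusted p = 0.0518) and 0.53 (SE 0.15, limma adjusted p = 0.648), and receptor and AdEmpty arrays did not overlap. The Pnpla2 difference under PPARγ2 was called in 6 alternatives, among them the replicate block (limma adjusted p = 0.00914) and leaving out AdEmpty replicate 3 (0.98, limma adjusted p = 0.0226). It was 0.44, and not called, with the mean of all probe sets of the gene. Aqp7, a glycerol channel, was at 0.39 and 0.09 (limma adjusted p = 0.356 and 1.00). The cofactor and inhibitor of that lipase, Abhd5 and G0s2, and the hormone-sensitive lipase gene Lipe, chosen after their values were seen, were at -0.18, 0.10 and 0.25 under PPARγ2 and at -0.32, -0.01 and -0.02 under PPARγCDE, all overlapping with AdEmpty.

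The 15 measured genes of triglyceride and sterol ester synthesis had 0 called, and 2 higher and 1 lower under PPARγ2, and 1 higher under PPARγCDE, at an unadjusted p under 0.05. Dgat2, which makes triglyceride from diglyceride, was at 0.63 (SE 0.20, limma adjusted p = 0.407) under PPARγ2 and 0.33 under PPARγCDE. Acsl4, an acyl-CoA synthetase with a preference for arachidonate, was at -0.61 (SE 0.25, limma adjusted p = 0.701) and -0.52. With the replicate number as a block, Dgat2 and Acsl4 were called under PPARγ2 (limma adjusted p = 0.0346 and 0.0123). Among 16 other droplet-resident proteins 0 were called and 1 was lower under PPARγ2 at an unadjusted p under 0.05. Cav1, the caveolin that also reaches droplets, was at -0.65 (SE 0.34) under PPARγ2 and -0.34 under PPARγCDE. With the block Cav1 was called under PPARγ2 (limma adjusted p = 0.00965). Snap23, a membrane fusion protein, was at -0.41 (SE 0.18) under PPARγ2 and -0.34 under PPARγCDE. The 9 measured genes of perilipin turnover and droplet autophagy had 0 called and 0 at an unadjusted p under 0.05. Their largest differences under PPARγ2 were -0.19 for Rab7, a late endosome GTPase, and 0.10 for Atg5, an autophagy factor.

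**Figure D4:**
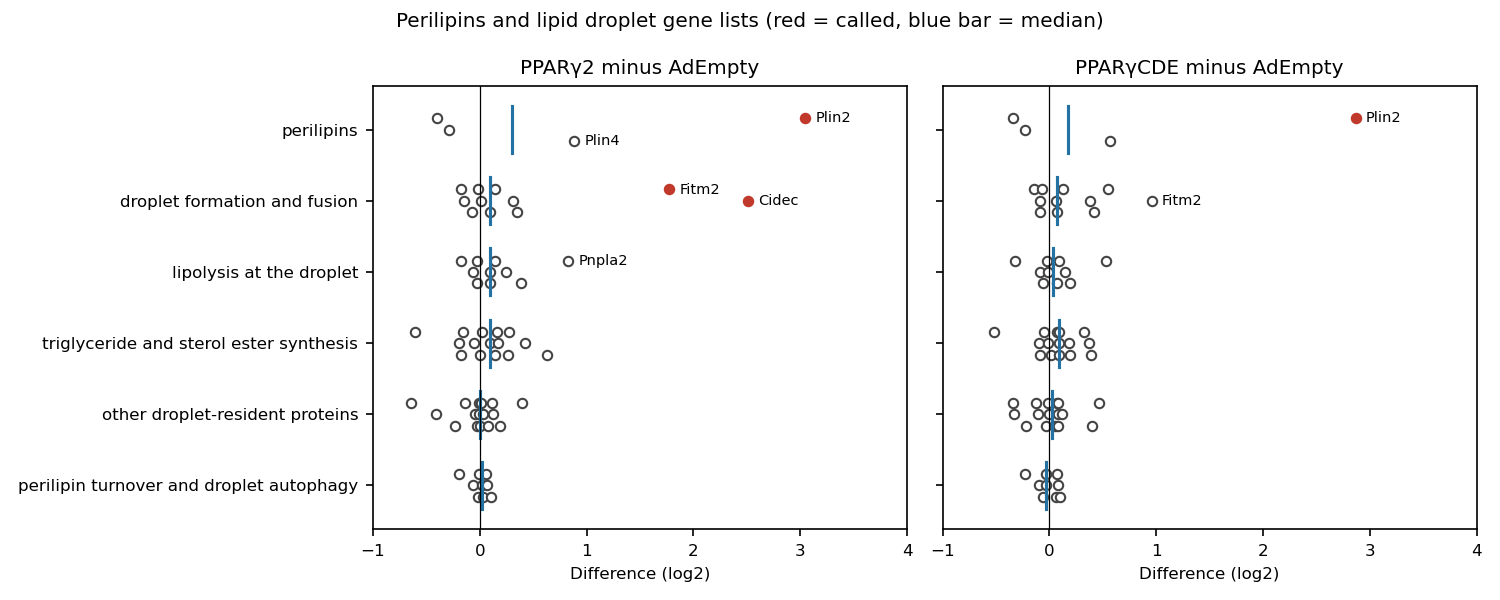
Difference from AdEmpty (log2) of each measured perilipin and of each gene in the 5 droplet lists, for PPARγ2 (left) and PPARγCDE (right); points are genes, red points are called by limma, blue bars are list medians, and genes beyond 0.75 are named. Plin2 is the point farthest to the right in both panels, at 3.04 and 2.87, and Cidec and Fitm2 are red on the left only.

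The genes whose course over the 9 arrays was nearest to Plin2, by the root mean square difference of log2 values after each gene was centred on its own mean, were Kank3 (0.31), Angptl4 (0.38), Pkp2 (0.40), Gm20559 (0.46) and Olr1 (0.60). This measure rests mostly on the step between AdEmpty and receptor arrays, so a step near that of Plin2 follows from the choice. Angptl4, a secreted inhibitor of lipoprotein lipase, was higher by 3.59 under PPARγ2 and 3.40 under PPARγCDE, where Plin2 was at 3.04 and 2.87. Kank3, of a family of adaptor proteins, was higher by 3.54 and 2.87, and Pkp2, a plakophilin of desmosomes, by 3.29 and 2.98. Gm20559 was higher by 2.36 and 2.25. Olr1, a receptor for oxidized lipoprotein, was at 2.39 and 1.89 and was not called (limma adjusted p = 0.117 and 0.617). Between the receptors these 5 genes were at -0.67 (Kank3), -0.19 (Angptl4), -0.31 (Pkp2), -0.12 (Gm20559) and -0.50 (Olr1), none of them called. When all probe sets of a gene were averaged, 3 of the 5 nearest genes were kept, and 3 were kept without the arrays numbered 3.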

How the data were processed

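The authors' log2 values came from RMA (package affy, R 2.5.0), per the submitters' processing notes, with 1 value for each probe set on each array. The log base was read from the values: on every array at least 99.858% of the antilogs to base 2 were multiples of 0.01 (tolerance 0.01 of that step). Groups and numbers came from the sample titles. Probe sets with 1 gene symbol in the platform annotation (34945 of 45101) were kept, with the 1 of highest mean per gene, giving 18193 genes; 64 control probe sets were left out. Differences were tested with limma 3.58.1 in R 4.3.3 (lmFit, contrasts, eBayes, two-sided, Benjamini-Hochberg) in 1 fit over 9 arrays without a block. The code was tested on simulated data. Tables used Python 3.11.15, pandas 2.3.3 and numpy 2.4.6, and figures matplotlib 3.10.9. Arrays have no read depth, and their number limits precision; over genes the SE had a median of 0.158.

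The members and lists were chosen with earlier results of these data known. Named were the members, Pparg, each called list gene, the 2 largest PPARγ2 differences from AdEmpty in each list, and the 5 genes nearest to a called member. Equal numbers were taken as pairs where the deviations from group means correlated above 0.1 in all 3 pairs. They did for PPARγCDE and AdEmpty (0.520 to 0.708) and for PPARγCDE and PPARγ2 (0.297 to 0.531). They did not for PPARγ2 and AdEmpty (-0.12, 0.63 and 0.26 for the numbers 1, 2 and 3), which does not show that those arrays were unpaired. The design text speaks of separate experiments without saying which arrays belong to which, so p-values reflect only how arrays of 1 clone vary. Alternatives were a replicate block, median subtraction, quantile normalization, the mean of probe sets, a fit over probe sets, a filter on genes with a mean under 6.68, only the arrays compared, a variance trend and leaving out each array.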

Additional observations from a re-analysis of the deposited data

How the results depend on the processing

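The increase of Plin2 under PPARγ2 kept its call in all 19 alternatives run, between 2.75 and 3.30. Under PPARγCDE it kept its direction in 19 and its call in 16, and ran from 2.56 to 3.12 when 1 array was left out. Against AdEmpty Plin3, Plin4 and Plin5 kept their direction in every alternative that gave a value; the filter on low means left Plin5 out. Numbers were not taken as pairs for PPARγ2 and AdEmpty, which does not show that those arrays were unpaired. With the replicate block Plin4 was called in that contrast (0.88, limma adjusted p = 0.0216). With the block and quantile normalization, chosen after seeing the data, Plin4 (0.89, 0.0198) and Plin3 (-0.41, 0.0489) were called. The block changed no other call of a member. Pnpla2 under PPARγ2 was called with the block (0.83, limma adjusted p = 0.00914), the block and quantile normalization (0.85, 0.0180), the filter on low means (0.83, 0.0342), the variance trend (0.83, 0.0435), without the arrays numbered 3 (0.94, 0.0258) and without AdEmpty replicate 3 (0.98, 0.0226). With 1 array left out, PPARγCDE minus PPARγ2 ran from -0.48 to 0.11 for Plin2, from -0.16 to 0.25 for Plin3 and from -0.033 to 0.20 for Plin5, so those signs were not fixed; for Plin4 it ran from -0.49 to -0.11. Other signs that turned were those of Acsl4 (-0.14 to 0.29), Cav1 (-0.016 to 0.56), Rab7 (-0.16 to 0.12, and 0.0020 with the mean of probe sets) and Snap23 (-0.091 to 0.17, and -0.0014 without the arrays numbered 3) between the receptors. Atg5 turned against AdEmpty, from -0.015 to 0.26 under PPARγ2 and from -0.12 to 0.068 under PPARγCDE.

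With the block 4 list genes were called higher and 2 lower under PPARγ2, and 1 and 1 under PPARγCDE, as with the block and quantile normalization. Under PPARγ2 with the block the 4 were Cidec, Dgat2, Fitm2 and Pnpla2, and the 2 were Acsl4 and Cav1. With 1 array left out, 0 to 1 list gene was called lower between the receptors. Among all genes, those called higher and lower under PPARγ2 numbered 344 and 317 with the block, 388 and 338 with the block and quantile normalization, 53 and 14 with only the 6 arrays compared, and 44 to 88 and 13 to 26 with 1 array left out. Under PPARγCDE they numbered 120 and 46, 122 and 48, and 17 to 30 and 0 to 4 with 1 array left out. They were 49 and 6 without the arrays numbered 3, and 1 was lower after median subtraction, quantile normalization or the mean of probe sets, and 0 with only the 6 arrays compared. Between the receptors 1 was higher and 2 lower with the block and quantile normalization, 1 was lower with the filter on low means, and 0 to 1 with 1 array left out. The cause of these changes was not tested.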
